A study of Mus musculus with 18 samples.

Results

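The genes described here were 38 named components of the lysosome in the macrophage. They comprised 7 subunits of the membrane sector (V0) and 8 subunits of the catalytic sector (V1) of the vacuolar proton pump (V-ATPase), its 2 accessory proteins, 9 lysosomal membrane glycoproteins and LAPTM proteins, 9 transporters, channels and their partners, and the 3 transcription factors *Tfeb*, *Tfe3* and *Mitf*. The members were chosen by gene symbol from a list, without a threshold on any measured value, and all 38 were found among the 16314 symbols of the count table. The list was drawn up with earlier results of these data known, so the counts below are not independent of those results. Bulk RNA-seq had been performed on bone marrow-derived macrophages (BMDMs) of *Prep* knockout (Prep-/-) mice and of heterozygous (Prep+/-) littermates on a C57BL6/J background, so the control carried 1 disrupted *Prep* allele and no wild-type group was among the groups compared. *Prep* encodes prolyl endopeptidase. Marrow cells of the femora were differentiated for 7 days in M-CSF at 50 ng/ml and were then left unstimulated (M0) or stimulated for 24 h with LPS at 50 ng/ml (M1) or with IL-4 and IL-13 at 20 ng/ml each (M2). Each of the 6 groups held 3 libraries.

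The lysosome is acidified by the V-ATPase, in which the V1 sector hydrolyses ATP outside the organelle and turns a ring of proteolipid subunits in the V0 sector that carries protons across the membrane. Subunits a and d of the V0 sector exist as isoforms, and the isoform of subunit a is known to guide the pump to different membranes, while subunit d2 is known from osteoclasts and macrophages. Heavily glycosylated membrane proteins line the inner face of the lysosome, and channels and transporters pass calcium, chloride, cystine, cholesterol and amino acids. TFEB, TFE3 and MITF are basic helix-loop-helix factors of one family (MiT/TFE) that are held in the cytoplasm by mTORC1 signalling from the lysosome and that bind an E-box within a longer palindrome, the CLEAR element, near lysosomal genes.

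Because the E-box is the shared sequence through which the 3 factors are known to reach lysosomal genes, the 300 bases from 250 before to 50 after the start of each gene's canonical transcript were searched on GRCm39 for CACGTG and for the longer TCACGTGA, which contains it and reads the same on both strands. CACGTG was present in 7 of the 38 windows (18.4%), against 7.82% of 21757 windows of protein-coding genes and 9.24% of those of the genes in the count table. TCACGTGA was present in 3 of 38 (7.89%), against 1.11% and 1.45%. The core of the site of the myeloid factor PU.1, GAGGAAGT, was searched on both strands and was found in 0 of 38 windows, against 3.07% and 2.99%. Below, 30 bases are shown for each of the 7 members with an E-box, placed to hold as many E-boxes as possible, 5′ to 3′ on the strand of the gene with CACGTG in capitals.
Atp6v0b, chr4:117744536-117744565, minus strand: ggtCACGTGgggtcggcgcatCACGTGcgc
Atp6v0e, chr17:26895361-26895390, plus strand: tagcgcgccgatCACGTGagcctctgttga
Atp6v1a, chr16:43960249-43960278, minus strand: gccgctcctccaCACGTGcactcgggacac
Atp6v1h, chr1:5153307-5153336, plus strand: gcggtCACGTGcggctgctCACGTGccaga
Lamp1, chr8:13209096-13209125, plus strand: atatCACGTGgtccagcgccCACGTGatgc
Mcoln1, chr8:3550462-3550491, plus strand: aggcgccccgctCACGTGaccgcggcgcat
Clcn7, chr17:25352349-25352378, plus strand: tCACGTGggcaccgatgatagatCACGTGa
The letters on both sides of the E-box completed TCACGTGA in *Atp6v0e*, *Mcoln1* and *Clcn7*. *Lamp1* held 4 E-boxes in its window, of which 2 are shown, and *Mcoln1* held 2, of which 1 is shown. None of the searched letters was in the windows of *Atp6v0d2*, *Tfeb*, *Tfe3* or *Mitf*. These matches describe the sequence only, and binding was not measured in these libraries.

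The libraries held 19068237 to 22598279 counts, and values below are CPM (counts scaled to library size) after TMM normalization. *Prep* itself lay between 26.0 and 42.5 CPM in the 9 Prep+/- libraries and between 1.48 and 3.22 CPM in the 9 Prep-/- libraries. The 8 macrophage markers were detected in every library, with lowest values of 6501 CPM for *Lyz2*, 943 for *Csf1r*, 708 for *Adgre1*, 174 for *Itgam*, 43.2 for *Cd14*, 27.9 for *Mertk*, 13.4 for *Fcgr1* and 12.0 for *Aif1*. In Prep-/- M0 replicate 3, genes with transcripts of up to 2155 bases had a median log2 difference of 0.33 from the other libraries of the group and those with transcripts of 5062 bases or more one of -0.29, while these medians lay between -0.26 and 0.20 in the other 17 libraries. In Prep-/- M2 replicate 3, the summed level of 10 osteoclast marker genes was 611 CPM, against 274 and 265 CPM in the other libraries of the group. Both libraries also stood apart from their groups across genes. The chi-square of counts per degree of freedom was 110.9 and 111.5 between Prep-/- M2 replicate 3 and replicates 1 and 2, against 12.1 between replicates 1 and 2. For Prep-/- M0 replicate 3 it was 112.3 and 119.7, against 35.2. Fewer cells of a type and less RNA per cell cannot be told apart in bulk libraries. The study describes the 3 libraries of a group as biological replicates. The labels do not say whether they came from separate animals, so p-values measure the spread between these libraries, which may be in part technical. Reads of 6 members can be shared with a similar copy elsewhere in the genome. The match was 97% to 99.8% identical for *Atp6v0c*, *Atp6v1g1*, *Atp6ap2*, *Cd63* and *Laptm4b*, and 91.6% for *Atp6v1f*. In addition, 31 members overlap another annotated gene, so the counts of all these genes are less certain. An overlap on the same strand was present for *Atp6v0a1*, *Atp6v0e*, *Atp6v1e1*, *Atp6v1h*, *Tpcn1*, *Tpcn2*, *Slc38a9* and *Ostm1*. The others overlap genes of the opposite strand only. The libraries were stranded, but the strand setting of the counting is not given.

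Between genotypes, each member that met the criteria for a difference was higher in Prep-/- BMDMs. Differentially expressed genes (DEGs) had an adjusted p under 0.05 (edgeR quasi-likelihood test, Benjamini-Hochberg adjustment over all 12021 genes tested) and a fold change over 1.5, and all 38 members passed the expression filter. In M0, 11 of the 38 members were DEGs that rose in Prep-/- BMDMs and 0 fell, against a background of 15.4% of all genes that rose and 17.2% that fell. In M1, 3 members rose and 0 fell (12.3% and 10.2% of all genes). In M2, 9 rose and 0 fell (6.37% and 9.82% of all genes). From these data, the study had already reported the lysosome pathway as activated by *Prep* knockout in M2. At adjusted p alone, without the fold criterion, 15 members were higher and 3 lower in M0 (24.3% and 24.2% of all genes), 10 higher and 3 lower in M1 (19.7% and 16.6%) and 17 higher and 0 lower in M2 (11.6% and 13.1%). For the counts of 0, DESeq2 also called 0 lower members in each state, and an unadjusted p under 0.05 was reached by 3 lower members in M0, 4 in M1 and 0 in M2.

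**Figure D1:**
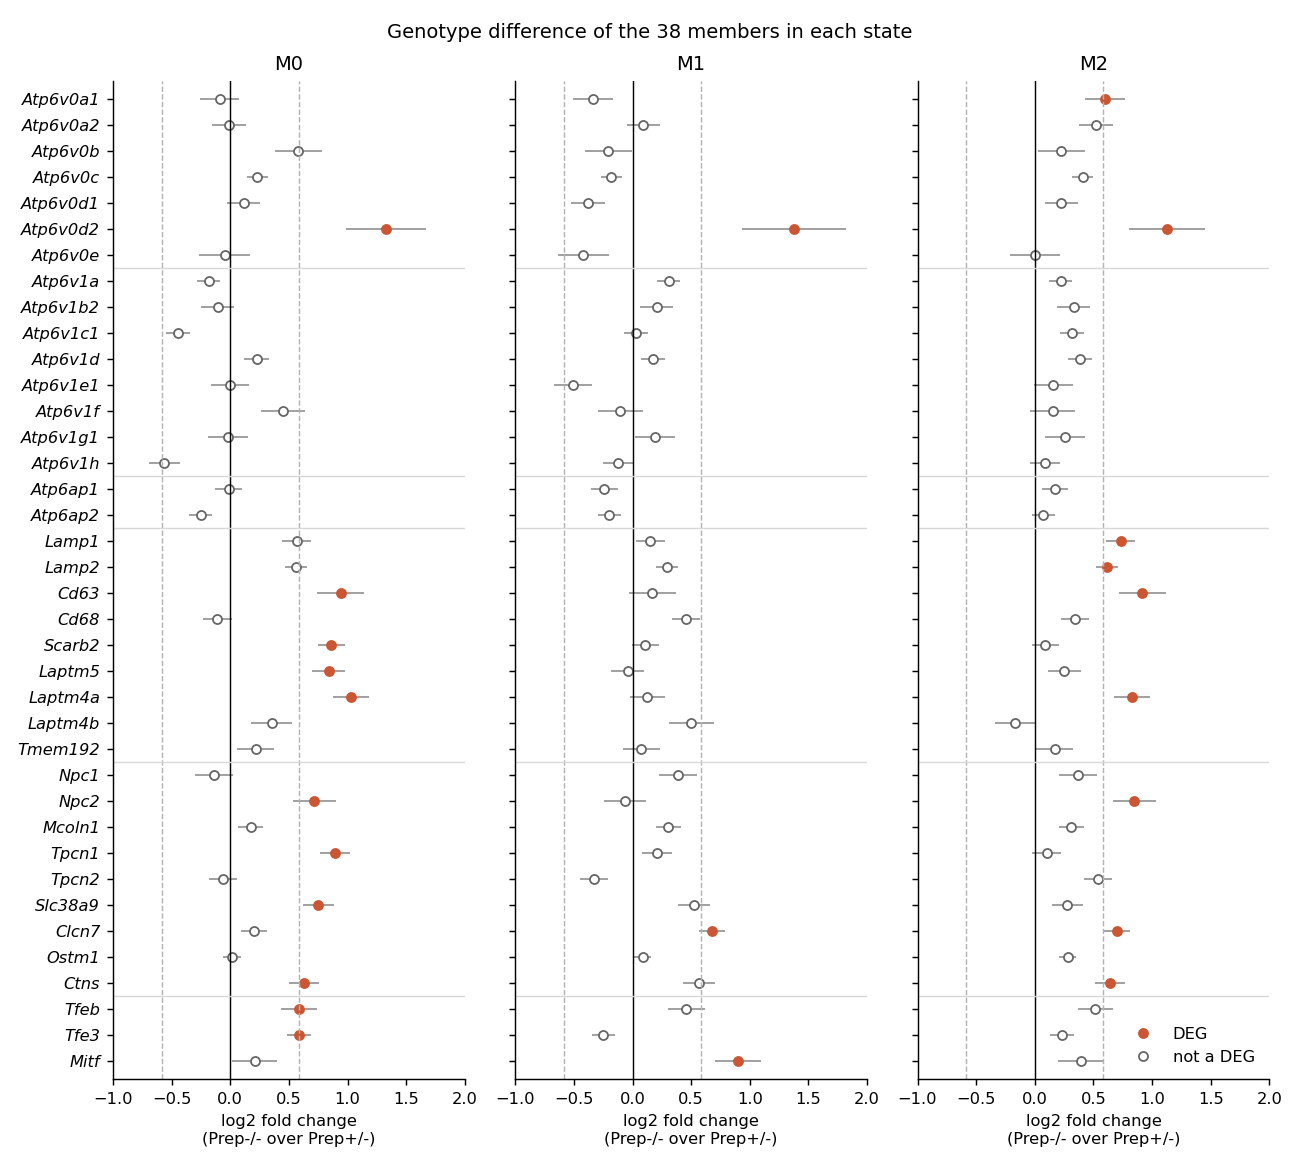
The horizontal axis of each panel is the log2 fold change of Prep-/- over Prep+/- BMDMs in M0, M1 or M2, with 1 point per member in order of role and bars of 1 standard error. Filled points are DEGs, dashed lines mark a fold change of 1.5, and grey lines separate the role groups. All filled points lie to the right of 0, with 11 in the M0 panel, 3 in the M1 panel and 9 in the M2 panel, and most V-ATPase subunits (the upper 17 genes) lie between the dashed lines.

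The median log2 fold change of the 38 members was 0.21, 0.12 and 0.31 in the M0, M1 and M2 states, against 0.02, 0.04 and 0.03 over all genes tested. In M2, 37 of the 38 members had a log2 fold change above 0, and in M0 and in M1 24 of 38 did. Of all 12021 genes tested, 6170 lay above 0 in M0, 6305 in M1 and 6372 in M2. The members called as DEGs differed between the states. A call in 1 state alone does not show a change between states, which the interaction test below addresses. For example, *Lamp1*, *Lamp2*, *Ctns* and *Tfeb* were called in some states only and passed no interaction test in edgeR. With DESeq2, the interaction in M1 passed for *Lamp1* (-0.45, adjusted p = 0.032) and *Lamp2* (-0.299, adjusted p = 0.034). Of the 16 members that were DEGs in at least 1 state, 1 (*Atp6v0d2*) was a DEG in all 3, 5 were DEGs in 2 states and 10 in 1 state. Calls across states were not counted over all genes, so these numbers describe the members only. The members called in both M0 and M2 were *Atp6v0d2*, *Cd63*, *Laptm4a*, *Npc2* and *Ctns*. Without Prep-/- M0 replicate 3, the count of higher members in M0 was 9, and with a correction for transcript length, an alternative chosen after seeing the data, it was 11. Several differences below the fold criterion lost the adjusted p without at least 1 library. In M0 these were *Atp6v0b*, *Atp6v0c* and *Atp6ap2* (adjusted p up to 0.225). In M1 they were *Atp6v0d1*, *Atp6v1a*, *Atp6v1e1*, *Cd68*, *Lamp2*, *Mcoln1*, *Tpcn2* and *Tfeb* (up to 0.177), and in M2 *Atp6v0a2*, *Atp6v1c1*, *Atp6v1d*, *Mcoln1*, *Ostm1* and *Tfeb* (up to 0.202).

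Among the V-ATPase genes, *Atp6v0d2* (chromosome 4, 19876838 to 19922614, minus strand of GRCm39) had the largest genotype difference in fold. It encodes an isoform of subunit d, which links the V0 ring to the V1 stalk. In M0, *Atp6v0d2* read 8.93, 12.7 and 20.3 CPM in Prep+/- and 56.3, 21.1 and 28.1 CPM in Prep-/- BMDMs. In M1, *Atp6v0d2* read 1.40, 1.41 and 2.73 CPM in Prep+/- and 5.30, 3.02 and 5.95 CPM in Prep-/- BMDMs. In M2, *Atp6v0d2* read 364, 430.5 and 415 CPM in Prep+/- and 907, 714 and 1018 CPM in Prep-/- BMDMs. Every Prep-/- library lay above every Prep+/- library of its state. The genotype difference was log2 fold change 1.33 ± 0.34, adjusted p = 0.0043 in M0 (2.51-fold), log2 fold change 1.38 ± 0.44, adjusted p = 0.0231 in M1 (2.6-fold) and log2 fold change 1.13 ± 0.33, adjusted p = 0.0188 in M2 (2.18-fold), where ± is the standard error of the fit throughout. In M0, the log2 fold change of *Atp6v0d2* was 0.81 (adjusted p = 0.0419) without Prep-/- replicate 1, its highest M0 library. In the stimulated states the call was not stable to single libraries. In M1, the adjusted p of *Atp6v0d2* was between 0.0713 and 0.0888 without Prep-/- replicate 1 or 3 or without Prep+/- replicate 1 or 2, and in M2 it was between 0.0502 and 0.0671 without Prep-/- replicate 1 or without Prep+/- replicate 1 or 2. The log2 fold change stayed between 1.06 and 1.28 without any of these 7 libraries.

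Its paralogue *Atp6v0d1*, the widely expressed isoform of subunit d, did not follow. In M0, *Atp6v0d1* read 289, 250.3 and 228 CPM in Prep+/- and 244, 241 and 345 CPM in Prep-/- BMDMs. In M1, *Atp6v0d1* read 315, 373 and 345 CPM in Prep+/- and 265, 254 and 275 CPM in Prep-/- BMDMs, and the Prep-/- values were all lower than the Prep+/- values. In M2, *Atp6v0d1* read 372, 372 and 342 CPM in Prep+/- and 473, 445 and 352 CPM in Prep-/- BMDMs. Its log2 fold changes by genotype were 0.11, -0.38 and 0.23 in M0, M1 and M2, and only the value in M1 passed the adjusted p (adjusted p = 0.0476), below the fold criterion.

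The isoforms of subunit a, which anchors the proton path of the V0 sector, were *Atp6v0a1* and *Atp6v0a2*. In M0, *Atp6v0a1* read 220, 225 and 230.3 CPM in Prep+/- and 237, 204 and 194 CPM in Prep-/- BMDMs. In M1, *Atp6v0a1* read 173, 149 and 166 CPM in Prep+/- and 111, 138 and 137 CPM in Prep-/- BMDMs. In M2, *Atp6v0a1* read 680.2, 762 and 748 CPM in Prep+/- and 932, 854 and 1526 CPM in Prep-/- BMDMs. The genotypes overlapped in M0, while the Prep-/- values were all lower in M1 and all higher in M2. The rise in M2 (log2 fold change 0.60 ± 0.17, adjusted p = 0.0168) depended on Prep-/- replicate 3, the library with the highest summed level of osteoclast markers. Without it, the log2 fold change of *Atp6v0a1* was 0.30 (adjusted p = 0.0527), without Prep+/- replicate 1 it was 0.55 (adjusted p = 0.0599), and with the replicate number as a block, which pairs the libraries in M2, it was 0.58 and fell below the fold criterion. *Atp6v0a2* read 34.1, 36.7 and 42.8 CPM in Prep+/- and 38.8, 41.7 and 32.5 CPM in Prep-/- BMDMs in M0. In M1, *Atp6v0a2* read 88.5, 72.3 and 81.1 CPM in Prep+/- and 93.8, 81.5 and 82.8 CPM in Prep-/- BMDMs. In M2, *Atp6v0a2* read 34.7, 37.8 and 38.4 CPM in Prep+/- and 43.8, 49.0 and 66.1 CPM in Prep-/- BMDMs. The genotypes overlapped in M0 and M1, and in M2 the difference passed the adjusted p below the fold criterion (log2 fold change 0.52 ± 0.14, adjusted p = 0.0149).

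**Figure D2:**
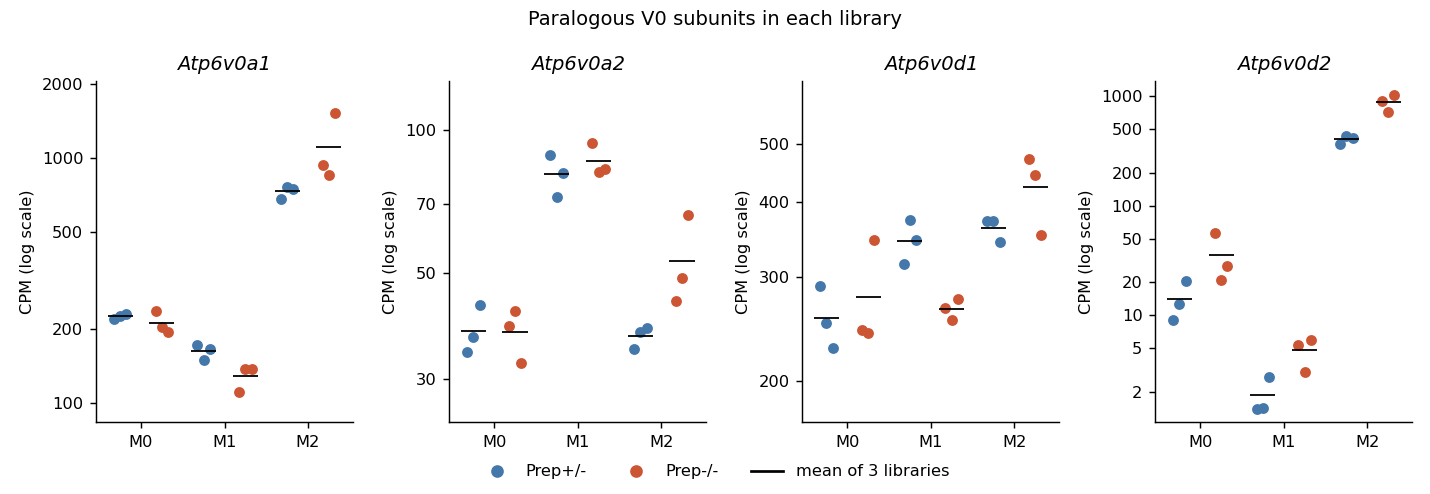
Each panel plots the CPM (vertical, log scale) of 1 paralogous V0 subunit in the 18 libraries by state, with Prep+/- in blue, Prep-/- in red and a line at the mean of 3 libraries. *Atp6v0d2* spans from 1.40 CPM in M1 to 1018 CPM in M2 with Prep-/- above Prep+/- in each state, *Atp6v0a1* is highest in M2 and *Atp6v0a2* in M1.

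None of the remaining subunits was a DEG between the genotypes. Outside the rule for genes given library by library, *Atp6v1c1*, *Atp6v1h* and *Atp6v0b* were added after their values were seen. In M0, *Atp6v1c1* (subunit C, which takes part in the reversible joining of V1 and V0) and *Atp6v1h* (subunit H) were lower in Prep-/- BMDMs at adjusted p but below the fold criterion. *Atp6v1c1* read 227, 240.4 and 223 CPM in Prep+/- and 157, 156 and 194 CPM in Prep-/- BMDMs (log2 fold change -0.45 ± 0.10, adjusted p = 0.00158). *Atp6v1h* read 119.5, 126 and 121 CPM in Prep+/- and 79.9, 74.5 and 94.4 CPM in Prep-/- BMDMs (log2 fold change -0.56 ± 0.13, adjusted p = 0.00229). In both genes the 3 Prep-/- values were the lowest of the 6, and *Atp6v1h* passed the fold criterion without Prep-/- M0 replicate 3 (log2 fold change -0.68, adjusted p = 0.000794). The accessory protein gene *Atp6ap2*, the prorenin receptor, had log2 fold change -0.25 ± 0.10, adjusted p = 0.045 in M0. The proteolipid ring genes were higher in M0 at adjusted p and below the fold criterion, *Atp6v0c* with log2 fold change 0.23 ± 0.09, adjusted p = 0.0411 and *Atp6v0b* with log2 fold change 0.58 ± 0.20, adjusted p = 0.0249. *Atp6v0b* read 525, 446 and 354 CPM in Prep+/- and 595, 468 and 919 CPM in Prep-/- BMDMs, and its highest value was in Prep-/- M0 replicate 3, the library with the shift towards short transcripts, without which its log2 fold change was 0.25 (adjusted p = 0.225). In M1, the stalk subunit gene *Atp6v1e1* was lower (log2 fold change -0.50 ± 0.16, adjusted p = 0.024) and the catalytic subunit gene *Atp6v1a* higher (log2 fold change 0.31 ± 0.10, adjusted p = 0.0216), both below the fold criterion. In M2, *Atp6v0c* (log2 fold change 0.41 ± 0.09, adjusted p = 0.00309), the stalk subunit gene *Atp6v1d* (log2 fold change 0.39 ± 0.10, adjusted p = 0.0133) and *Atp6v1c1* (log2 fold change 0.32 ± 0.10, adjusted p = 0.0279) were higher below the fold criterion, so that *Atp6v1c1* passed the adjusted p in opposite directions in M0 and M2. In M2, all 17 V-ATPase genes had a log2 fold change above 0, from 0.0009 for *Atp6v0e* to 1.13 for *Atp6v0d2*, with a median of 0.23. Of all 12021 genes tested, 6372 lay above 0 in M2. The median of the 17 was -0.01 in M0 and -0.12 in M1.

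The membrane glycoproteins held 4 DEGs in M0, 0 in M1 and 4 in M2, of 9. Each of these DEGs was higher in Prep-/- BMDMs. Across all genes tested, the share called higher was 15.4%, 12.3% and 6.37% by state, and the share called lower was 17.2%, 10.2% and 9.82%. *Cd63*, a tetraspanin of late endosomes and lysosomes, was called in M0 and M2. In M0, *Cd63* read 600.2, 518 and 449 CPM in Prep+/- and 906, 719.9 and 1380 CPM in Prep-/- BMDMs. In M1, *Cd63* read 463, 622 and 561 CPM in Prep+/- and 692, 534 and 625 CPM in Prep-/- BMDMs. In M2, *Cd63* read 717, 659 and 728 CPM in Prep+/- and 1439, 1090 and 1445 CPM in Prep-/- BMDMs. The genotypes were apart in M0 (522 ± 75.9 against 1002 ± 340.5 CPM, log2 fold change 0.94 ± 0.20, adjusted p = 0.00109) and in M2 (702 ± 37.0 against 1324 ± 204 CPM, log2 fold change 0.92 ± 0.20, adjusted p = 0.00315), where ± after a CPM value is the SD of 3 libraries, and they overlapped in M1. Without Prep-/- M0 replicate 3, the log2 fold change of *Cd63* in M0 was 0.62 (adjusted p = 0.00609). *Laptm4a*, which encodes a protein of the late endosomal membrane, showed the same order of states. In M0, *Laptm4a* read 328, 299.8 and 280.3 CPM in Prep+/- and 617, 538 and 697 CPM in Prep-/- BMDMs. In M1, *Laptm4a* read 373, 414 and 404 CPM in Prep+/- and 473, 388 and 439 CPM in Prep-/- BMDMs. In M2, *Laptm4a* read 415, 430.2 and 374 CPM in Prep+/- and 872, 762 and 532 CPM in Prep-/- BMDMs. It rose in M0 (2.04-fold, log2 fold change 1.03 ± 0.15, adjusted p = 5.25e-05) and in M2 (1.78-fold, log2 fold change 0.83 ± 0.15, adjusted p = 0.000818), and its genotypes overlapped in M1. The paralogue *Laptm4b* was weakly expressed. *Laptm4b* read 5.97, 5.13 and 4.97 CPM in Prep+/- and 6.69, 6.03 and 7.80 CPM in Prep-/- BMDMs in M0. In M1, *Laptm4b* read 1.88, 2.70 and 2.60 CPM in Prep+/- and 3.85, 3.63 and 2.70 CPM in Prep-/- BMDMs. In M2, *Laptm4b* read 5.54, 5.41 and 5.75 CPM in Prep+/- and 5.48, 4.998 and 4.41 CPM in Prep-/- BMDMs, and no genotype difference passed the adjusted p in any state.

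*Scarb2* and *Laptm5* met the criteria in M0 and not in the stimulated states. *Scarb2* encodes LIMP-2, the receptor that carries glucocerebrosidase to the lysosome. In M0, *Scarb2* read 178, 165 and 162 CPM in Prep+/- and 357, 294 and 268 CPM in Prep-/- BMDMs. In M1, *Scarb2* read 171, 173 and 177 CPM in Prep+/- and 203, 177 and 183 CPM in Prep-/- BMDMs. In M2, *Scarb2* read 161, 158 and 139 CPM in Prep+/- and 174, 172 and 139.6 CPM in Prep-/- BMDMs. The rise in M0 was 1.82-fold (log2 fold change 0.86 ± 0.12, adjusted p = 2.36e-05), and the genotypes overlapped in M1 and M2. *Laptm5* encodes a lysosomal membrane protein of blood cells. In M0, *Laptm5* read 1359, 1219 and 1232 CPM in Prep+/- and 2191, 1962 and 2661 CPM in Prep-/- BMDMs. In M1, *Laptm5* read 922, 897 and 876 CPM in Prep+/- and 933, 854 and 830.4 CPM in Prep-/- BMDMs. In M2, *Laptm5* read 1404, 1534 and 1260 CPM in Prep+/- and 1878, 1828 and 1296 CPM in Prep-/- BMDMs. It rose in M0 (log2 fold change 0.84 ± 0.14, adjusted p = 0.000182) with no overlap between genotypes, and the groups overlapped in M1 and M2.

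The LAMP proteins make up a large share of the lysosomal membrane. In M0, *Lamp1* read 2225, 2027 and 1964 CPM in Prep+/- and 2833, 3111 and 3260 CPM in Prep-/- BMDMs. In M1, *Lamp1* read 2287, 2225 and 2182 CPM in Prep+/- and 2628, 2362 and 2440 CPM in Prep-/- BMDMs. In M2, *Lamp1* read 2611, 2780 and 2466 CPM in Prep+/- and 5022, 4523 and 3522 CPM in Prep-/- BMDMs. Every Prep-/- library was above every Prep+/- library in each state, and the rise in M2 met the criteria (log2 fold change 0.73 ± 0.12, adjusted p = 0.000445) while the difference in M0 passed the adjusted p just under the fold criterion (log2 fold change 0.57 ± 0.12, adjusted p = 0.00133). *Lamp2*, which also serves chaperone-mediated autophagy, was similar. *Lamp2* read 530.1, 517 and 563 CPM in Prep+/- and 736, 824 and 816 CPM in Prep-/- BMDMs in M0. In M1, *Lamp2* read 664, 663 and 668 CPM in Prep+/- and 885, 733 and 832 CPM in Prep-/- BMDMs. In M2, *Lamp2* read 522, 504 and 529.7 CPM in Prep+/- and 809, 736 and 838 CPM in Prep-/- BMDMs. *Lamp2* was a DEG in M2 (log2 fold change 0.62 ± 0.09, adjusted p = 0.00022) and passed the adjusted p below the fold criterion in M0 (0.56, adjusted p = 0.000168) and M1 (0.30, adjusted p = 0.0228). *Cd68*, the macrosialin of macrophages, had log2 fold changes of -0.11, 0.46 and 0.34 in M0, M1 and M2 and was no DEG, with the adjusted p passed in M1 (adjusted p = 0.00906). Without Prep+/- M2 replicate 2, *Lamp2* in M2 was 0.565, below the fold criterion. *Tmem192* had genotype log2 fold changes of 0.22, 0.08 and 0.17 and passed no test.

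Of the 9 transporters, channels and partners, 4 rose in M0, 1 in M1 and 3 in M2. The matching background of genes that rose was 15.4%, 12.3% and 6.37%, so the 1 call in M1 does not stand out from it. *Npc2* and *Npc1* encode the luminal and the membrane protein of cholesterol export. In M0, *Npc2* read 1502, 1349 and 1153 CPM in Prep+/- and 2227, 1657 and 2702 CPM in Prep-/- BMDMs. In M1, *Npc2* read 3170, 3943 and 3658 CPM in Prep+/- and 3854, 2893 and 3571 CPM in Prep-/- BMDMs. In M2, *Npc2* read 1550, 1392 and 1300 CPM in Prep+/- and 3044, 2439 and 2160 CPM in Prep-/- BMDMs. It rose in M0 (log2 fold change 0.72 ± 0.18, adjusted p = 0.00358) and M2 (log2 fold change 0.85 ± 0.18, adjusted p = 0.00254), and the genotypes overlapped in M1. Without Prep-/- M0 replicate 3, the log2 fold change of *Npc2* in M0 was 0.53 (adjusted p = 0.0227), below the fold criterion. *Npc1* had log2 fold changes of -0.14, 0.39 and 0.37 and passed no genotype test.

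The cation channels of the endolysosome differed among themselves. *Tpcn1* read 161, 126 and 154 CPM in Prep+/- and 277, 295 and 248 CPM in Prep-/- BMDMs in M0. In M1, *Tpcn1* read 48.3, 39.7 and 39.3 CPM in Prep+/- and 51.1, 49.8 and 46.4 CPM in Prep-/- BMDMs. In M2, *Tpcn1* read 85.9, 104 and 90.3 CPM in Prep+/- and 98.7, 114 and 87.4 CPM in Prep-/- BMDMs. It rose in M0 (1.86-fold, log2 fold change 0.89 ± 0.13, adjusted p = 3.24e-05), and its genotypes overlapped in both stimulated states. Its paralogue *Tpcn2* passed the adjusted p below the fold criterion in opposite directions, lower in M1 (log2 fold change -0.33 ± 0.12, adjusted p = 0.0411) and higher in M2 (log2 fold change 0.54 ± 0.12, adjusted p = 0.00315), with -0.06 in M0. *Mcoln1*, the calcium channel mucolipin 1, whose promoter held TCACGTGA, had 0.17, 0.31 and 0.31 and passed the adjusted p below the fold criterion in M1 (adjusted p = 0.034) and M2 (adjusted p = 0.0418).

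*Clcn7*, the chloride and proton exchanger of the lysosome, rose in both stimulated states. In M0, *Clcn7* read 132, 131 and 137 CPM in Prep+/- and 167, 166 and 126 CPM in Prep-/- BMDMs. In M1, *Clcn7* read 257, 210.1 and 234 CPM in Prep+/- and 397, 374 and 352 CPM in Prep-/- BMDMs. In M2, *Clcn7* read 143, 153 and 153 CPM in Prep+/- and 259.8, 246 and 226 CPM in Prep-/- BMDMs. The Prep-/- libraries lay above all Prep+/- libraries in M1 (234 ± 23.6 against 374 ± 22.4 CPM, log2 fold change 0.68 ± 0.11, adjusted p = 0.000417) and in M2 (149.8 ± 5.78 against 244 ± 17.2 CPM, log2 fold change 0.70 ± 0.11, adjusted p = 0.000278), and the genotypes overlapped in M0. *Ostm1*, which encodes the subunit that stabilises this exchanger, moved less, with 0.02, 0.09 and 0.28, and passed the adjusted p in M2 (adjusted p = 0.0118) below the fold criterion.

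*Ctns*, the cystine exporter, and *Slc38a9*, the arginine sensor that signals to mTORC1, completed the group. In M0, *Ctns* read 38.1, 30.7 and 34.1 CPM in Prep+/- and 50.3, 57.6 and 51.0 CPM in Prep-/- BMDMs. In M1, *Ctns* read 19.6, 16.8 and 16.7 CPM in Prep+/- and 26.3, 26.5 and 25.7 CPM in Prep-/- BMDMs. In M2, *Ctns* read 42.6, 46.9 and 39.0 CPM in Prep+/- and 73.4, 74.6 and 53.0 CPM in Prep-/- BMDMs. Its genotypes did not overlap in any state, and it was a DEG in M0 (log2 fold change 0.63 ± 0.13, adjusted p = 0.000822) and M2 (log2 fold change 0.64 ± 0.13, adjusted p = 0.00161), with log2 fold change 0.57 ± 0.13, adjusted p = 0.00421 in M1 just under the fold criterion. *Slc38a9* read 22.3, 22.3 and 23.3 CPM in Prep+/- and 42.7, 41.7 and 29.9 CPM in Prep-/- BMDMs in M0. In M1, *Slc38a9* read 24.2, 19.1 and 22.3 CPM in Prep+/- and 35.4, 28.4 and 30.5 CPM in Prep-/- BMDMs. In M2, *Slc38a9* read 31.1, 29.8 and 28.4 CPM in Prep+/- and 34.7, 38.8 and 34.7 CPM in Prep-/- BMDMs. The genotypes did not overlap in any state, but only the rise in M0 met the criteria (log2 fold change 0.75 ± 0.13, adjusted p = 0.000229), with 0.52 (adjusted p = 0.00672) in M1 and 0.28 (adjusted p = 0.136) in M2. *Ctns* fell below the fold criterion in M0 without Prep-/- or Prep+/- replicate 2 (0.56 and 0.53) and in M2 without Prep-/- replicate 1 or 2 (0.57 for both).

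**Figure D3:**
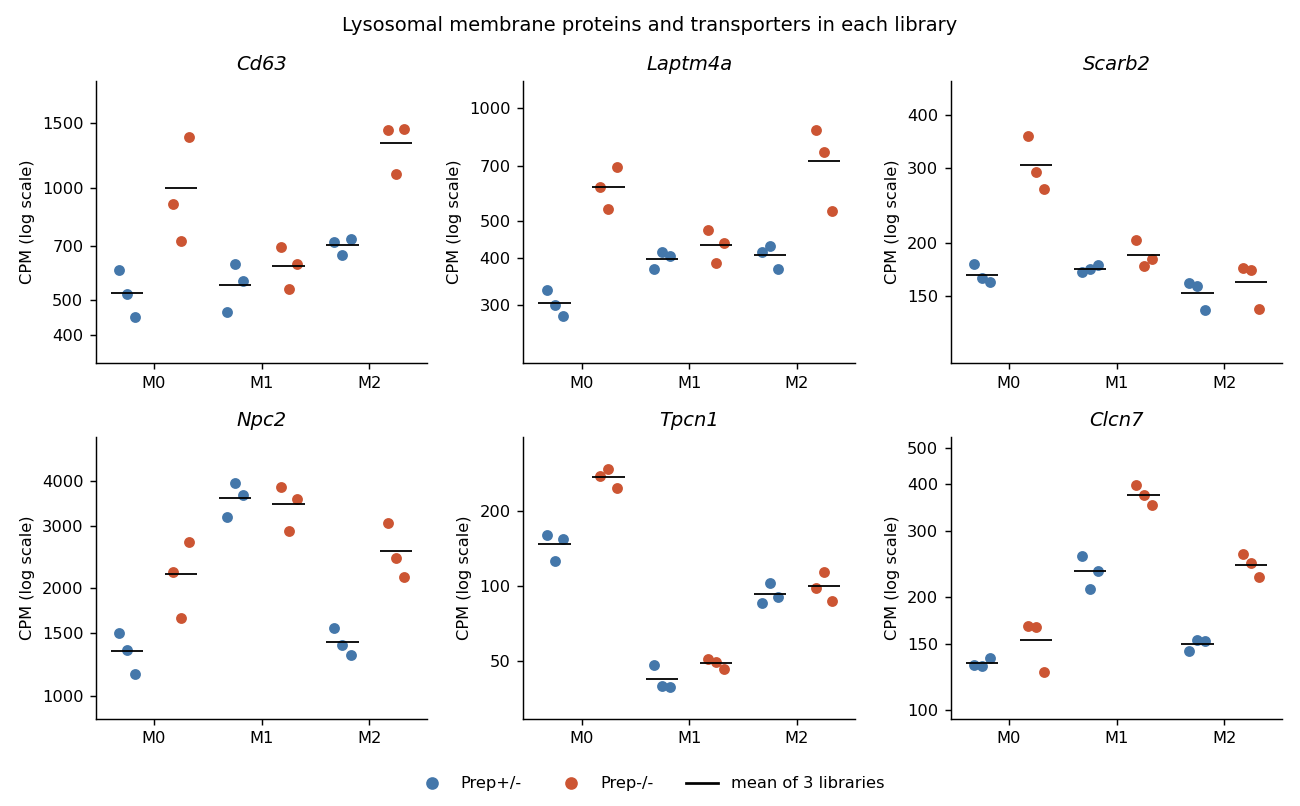
Each panel plots the CPM (vertical, log scale) of 1 gene in the 18 libraries by state, with Prep+/- in blue, Prep-/- in red and a line at the mean of 3 libraries. *Cd63*, *Laptm4a* and *Npc2* separate by genotype in M0 and M2 and overlap in M1, *Scarb2* and *Tpcn1* separate in M0, and *Clcn7* separates in M1 and M2.

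The 3 MiT/TFE factors each had a pattern of their own. *Tfeb* (chromosome 17, 48047837 to 48103348, plus strand), the factor best known for lysosome biogenesis, was higher in Prep-/- BMDMs in each state with no overlap. In M0, *Tfeb* read 46.5, 42.9 and 41.0 CPM in Prep+/- and 74.4, 48.4 and 73.5 CPM in Prep-/- BMDMs. In M1, *Tfeb* read 22.3, 26.8 and 27.4 CPM in Prep+/- and 39.2, 32.7 and 33.3 CPM in Prep-/- BMDMs. In M2, *Tfeb* read 94.9, 86.1 and 83.1 CPM in Prep+/- and 144, 126 and 106 CPM in Prep-/- BMDMs. It met the criteria in M0 by a small margin (log2 fold change 0.59 ± 0.15, adjusted p = 0.00457, where the fold criterion is 0.58 on the log2 scale), and passed the adjusted p below the fold criterion in M1 (log2 fold change 0.46 ± 0.16, adjusted p = 0.0303) and M2 (log2 fold change 0.52 ± 0.15, adjusted p = 0.02). Without Prep-/- M0 replicate 1 or 3 or Prep+/- M0 replicate 2 or 3, the value of *Tfeb* in M0 was between 0.48 and 0.56, below the fold criterion, and still passed the adjusted p.

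*Tfe3* (chromosome X, 7628761 to 7641444, plus strand) had the highest mean level of the 3 per kilobase of transcript in 5 of the 6 groups, and *Tfeb* had it in Prep-/- M2 (53.6 against 46.9 CPM per kilobase). In M0, *Tfe3* read 144, 126 and 126 CPM in Prep+/- and 229.5, 174 and 191 CPM in Prep-/- BMDMs. In M1, *Tfe3* read 204, 204 and 214 CPM in Prep+/- and 174, 162 and 187 CPM in Prep-/- BMDMs. In M2, *Tfe3* read 132, 141 and 137 CPM in Prep+/- and 161, 159.6 and 159.9 CPM in Prep-/- BMDMs. It rose in M0 (log2 fold change 0.59 ± 0.10, adjusted p = 0.000204), again close to the fold criterion, and the value was 0.47 without Prep-/- replicate 1, 0.53 without Prep+/- replicate 2 and 0.54 without Prep+/- replicate 3. In M1 the order of the genotypes was the opposite, and the Prep-/- values were all lower than the Prep+/- values (-0.25, adjusted p = 0.0651), which did not pass the test. *Mitf* (chromosome 6, 97783950 to 97998323, plus strand) has known roles in melanocytes, mast cells and osteoclasts. In M0, *Mitf* read 42.1, 51.7 and 49.8 CPM in Prep+/- and 66.1, 55.5 and 44.6 CPM in Prep-/- BMDMs. In M1, *Mitf* read 60.3, 48.8 and 54.3 CPM in Prep+/- and 135, 77.1 and 92.1 CPM in Prep-/- BMDMs. In M2, *Mitf* read 72.2, 77.8 and 82.0 CPM in Prep+/- and 88.7, 89.0 and 126 CPM in Prep-/- BMDMs. It was a DEG in M1 (1.86-fold, log2 fold change 0.90 ± 0.19, adjusted p = 0.0025) and passed no test in M0 or M2. The genotypes of *Tfe3* and *Mitf* did not overlap in M2 either, where neither gene passed the adjusted p.

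**Figure D4:**
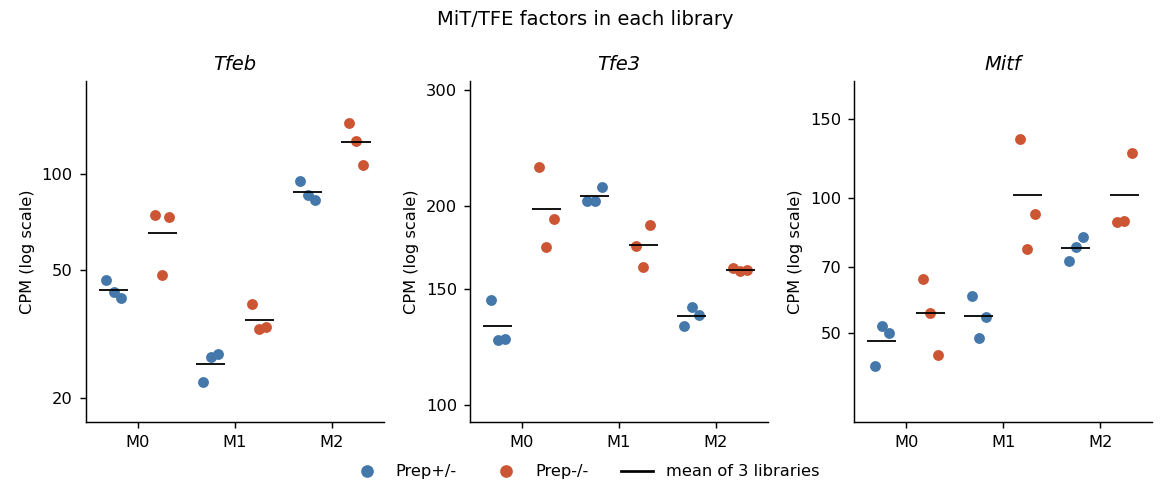
Each panel plots the CPM (vertical, log scale) of 1 MiT/TFE factor in the 18 libraries by state, with Prep+/- in blue, Prep-/- in red and a line at the mean of 3 libraries. *Tfeb* is lowest in M1 and highest in M2 in both genotypes, *Tfe3* is above Prep+/- in M0 and below it in M1 in the Prep-/- libraries, and *Mitf* separates by genotype in M1 and M2.

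Whether the genotype difference itself changed with the state was tested as an interaction, called at adjusted p under 0.05. Relative to M0, the difference in M1 was lower for 7 members and higher for 4 (background 10.9% and 13.7% of all genes), and the difference in M2 was lower for 2 and higher for 3 (4.48% and 5.16%). The genes shifted downwards in M1 were *Laptm4a*, *Laptm5*, *Tfe3*, *Npc2*, *Scarb2*, *Tpcn1* and *Atp6v0c*, with changes of the log2 fold change from -0.90 for *Laptm4a* to -0.41 for *Atp6v0c*. Those shifted upwards in M1 were *Cd68*, *Atp6v1a*, *Clcn7* and *Atp6v1c1*, from 0.57 down to 0.48. In M2, *Atp6v1c1*, *Atp6v1h* and *Tpcn2* shifted upwards and *Scarb2* and *Tpcn1* downwards. The difference of *Atp6v0d2* did not pass either test of a change between states (log2 fold change 0.05 ± 0.53, adjusted p = 0.957 in M1 and log2 fold change -0.20 ± 0.46, adjusted p = 0.825 in M2). For *Tfeb* the values were log2 fold change -0.13 ± 0.22, adjusted p = 0.691 and log2 fold change -0.07 ± 0.21, adjusted p = 0.866. The interactions of *Laptm4a*, *Laptm5*, *Scarb2*, *Tfe3* and *Tpcn1* in M1 and of *Atp6v1c1*, *Scarb2* and *Tpcn1* in M2 held when any single library was left out. Those of *Atp6v1a* were lost without Prep-/- M1 replicate 1 or Prep+/- M1 replicate 2 or 3 (adjusted p = 0.0587 to 0.0605). Those of *Atp6v0c*, *Atp6v1c1*, *Cd68*, *Clcn7* and *Npc2* in M1 were lost without any of 4 to 8 of the 12 libraries in the test (adjusted p = 0.0510 to 0.101), and those of *Atp6v1h* and *Tpcn2* in M2 without any of 9 and 5 of 12 (adjusted p = 0.0505 to 0.102). With the replicate block and only the libraries compared, none of the 4 upward interactions in M1 passed (adjusted p = 0.0532 to 0.0758), and with the block over all 18 libraries all 4 passed (adjusted p = 0.0223 to 0.0328). Both interaction tests share the M0 libraries.

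After IL-4 and IL-13, 6 of the 17 V-ATPase genes rose in Prep+/- and 10 in Prep-/- BMDMs, and 0 fell. In M2 against M0, 9 members rose and 1 fell in Prep+/- BMDMs (6.09% and 6.77% of all genes), and 16 rose and 2 fell in Prep-/- BMDMs (14.7% and 15.5%). At adjusted p alone these counts were 16 and 1 (9.35% and 9.06%) and 22 and 5 (22.1% and 21.7%). The median log2 fold change of the V-ATPase genes was 0.50 and 0.73, against -0.01 and -0.02 over all genes. The comparisons of a genotype with its own M0 group share no library with those of the other genotype.

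*Atp6v0d2* had the largest change of the members, with log2 fold change 4.85 ± 0.38, adjusted p = 1.34e-07 (28.8-fold) in Prep+/- and log2 fold change 4.65 ± 0.38, adjusted p = 6.93e-08 (25-fold) in Prep-/- BMDMs, and its libraries given above were far apart between M0 and M2. *Atp6v0a1* followed (log2 fold change 1.70 ± 0.17, adjusted p = 2.60e-06 and log2 fold change 2.38 ± 0.18, adjusted p = 2.57e-08). Among the V1 genes, *Atp6v1b2*, the nucleotide-binding subunit B, went from 578 to 626 CPM in Prep+/- M0 to between 1199 and 1331 CPM in Prep+/- M2 libraries (log2 fold change 1.08 ± 0.14, adjusted p = 3.22e-05), and rose in Prep-/- BMDMs as well (log2 fold change 1.52 ± 0.14, adjusted p = 3.41e-07). *Atp6v1d* and *Atp6v1h* of the V1 sector and *Atp6v0c* of the V0 ring rose in both genotypes, *Atp6v1h* by 0.69 in Prep+/- and 1.34 in Prep-/- BMDMs on the log2 scale. *Atp6v1a*, *Atp6v1c1*, *Atp6v1e1* and *Atp6v0d1* were DEGs in Prep-/- BMDMs alone, and in Prep+/- BMDMs they passed the adjusted p with 0.54, 0.47, 0.57 and 0.50. Of these 4, the interaction above tested the difference between genotypes, and *Atp6v1c1* passed it. *Atp6v0b*, *Atp6v0e*, *Atp6v1f* and *Atp6ap1* passed no test in either genotype. Several calls lay close to the fold criterion and fell below it without single libraries. These were *Atp6v0c* in Prep+/- (0.54 to 0.58 without M0 replicate 1 or 3 or M2 replicate 2 or 3), *Atp6v1d* in Prep+/- (0.58 without M0 replicate 3), *Atp6v0d1* in Prep-/- (0.49 to 0.56 without M0 or M2 replicate 1 or 2) and *Atp6v1e1* in Prep-/- (0.555 without M0 replicate 2).

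After LPS, 3 of the 17 V-ATPase genes rose and 1 fell in Prep+/- BMDMs, and 2 rose and 2 fell in Prep-/- BMDMs. In M1 against M0, 6 of all 38 members rose and 5 fell in Prep+/- BMDMs (16.7% and 20.9% of all genes), and 5 rose and 9 fell in Prep-/- BMDMs (20.9% and 21.0%). At adjusted p alone these counts were 15 and 8 (24.8% and 27.3%) and 11 and 11 (29.3% and 27.8%). *Atp6v0d2* fell (log2 fold change -2.93 ± 0.42, adjusted p = 1.81e-05 in Prep+/- and log2 fold change -2.88 ± 0.37, adjusted p = 6.51e-06 in Prep-/-), to between 1.40 and 5.95 CPM. *Atp6v0a2* rose (log2 fold change 1.09 ± 0.14, adjusted p = 8.67e-06 and log2 fold change 1.19 ± 0.14, adjusted p = 3.38e-06), while *Atp6v0a1* fell in Prep-/- BMDMs (log2 fold change -0.72 ± 0.17, adjusted p = 0.00181) and was lower below the fold criterion in Prep+/- BMDMs (-0.47, adjusted p = 0.0285). *Atp6v0c* and *Atp6v1e1* rose in Prep+/- BMDMs (0.87 and 1.01), and *Atp6v1h* rose in Prep-/- BMDMs (0.89).

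**Figure D5:**
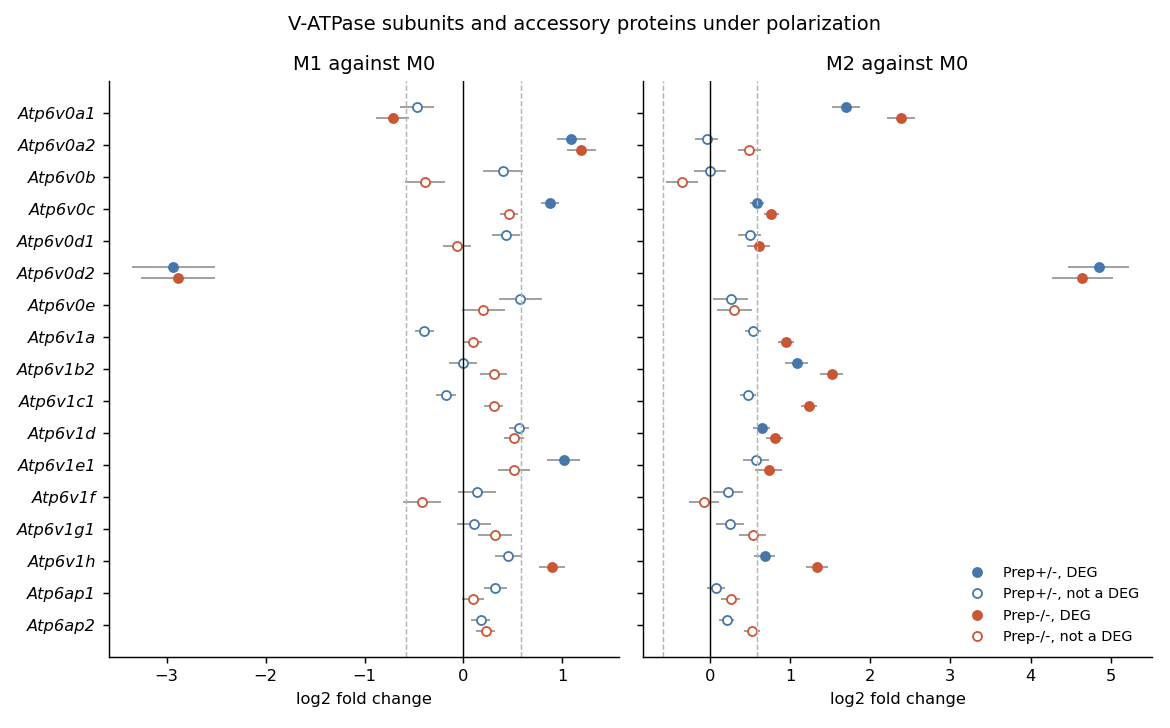
The horizontal axis is the log2 fold change of M1 (left) or M2 (right) over M0 for the 17 V-ATPase genes, in blue for Prep+/- and red for Prep-/- BMDMs, with bars of 1 standard error, filled points for DEGs and dashed lines at a fold change of 1.5. *Atp6v0d2* lies near -2.9 in M1 and above 4.6 in M2, *Atp6v0a1* and *Atp6v0a2* change places between the panels, and most V1 genes lie to the right of 0 in M2.

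The isoform make-up was compared on the scale of CPM per kilobase of the canonical transcript. Subunit d2 made up 2.03% to 5.62% of the d isoforms in Prep+/- M0 libraries and 5.17% to 13.4% in Prep-/- M0 libraries. In M1 its share was 0.252% to 0.526% in Prep+/- and 0.793% to 1.43% in Prep-/- libraries. In M2 it was 39.6% to 44.8% in Prep+/- and 51.8% to 65.9% in Prep-/- libraries, so the shares overlapped between genotypes in M0 and did not in M1 and M2. Subunit a1 made up 87.5% to 89.3% of the sum of a1 and a2 in Prep+/- M0 and 86.4% to 88.8% in Prep-/- M0 libraries. In M1 its share was 71.7% to 72.8% in Prep+/- and 60.6% to 68.7% in Prep-/- libraries, without overlap. In M2 it was 96.2% to 96.3% in Prep+/- and 95.8% to 96.8% in Prep-/- libraries. *Tcirg1*, which encodes isoform a3, is not in that sum and is described with the other V-ATPase genes. The number of counts behind *Atp6v0d2* was smallest in M1, and these shares carry no test.

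Outside the pump, transporters moved in both directions in M1 and in M2. *Tpcn1* fell in both stimulated states and both genotypes, with log2 fold changes of -1.79 in Prep+/- and -2.48 in Prep-/- BMDMs in M1 and of -0.66 and -1.45 in M2. *Tpcn2* rose in M2 (log2 fold change 1.13 ± 0.12, adjusted p = 3.74e-06 and log2 fold change 1.73 ± 0.12, adjusted p = 1.33e-08). *Ctns* fell in M1 (-0.96 in Prep+/- and -1.02 in Prep-/- BMDMs), *Clcn7* rose in M1 (0.81 in Prep+/- and 1.29 in Prep-/- BMDMs), and *Npc2* rose in M1 (1.43 in Prep+/- and 0.65 in Prep-/- BMDMs). The rise of *Npc2* in Prep-/- M1 BMDMs was lost without Prep-/- M0 replicate 2 (0.43) or Prep-/- M1 replicate 1 or 3 (0.51 and 0.58). *Npc1* rose in Prep-/- M2 BMDMs (2-fold, adjusted p = 0.000133), and *Clcn7* did too (0.67), the latter at 0.54 without Prep-/- M0 replicate 3.

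Of the membrane glycoproteins, *Laptm4b* fell in M1 in both genotypes (-1.16 in Prep+/- and -1.01 in Prep-/- BMDMs). *Laptm5*, *Scarb2* and *Cd63* fell in M1 in Prep-/- BMDMs (-1.38, -0.70 and -0.70), with -0.50, 0.05 and 0.07 in Prep+/- BMDMs, and the interaction passed for *Laptm5* and *Scarb2* but not for *Cd63* (log2 fold change -0.77 ± 0.28, adjusted p = 0.0545). The interaction of *Cd63* did pass with DESeq2 (-0.81, adjusted p = 0.027) and with DESeq2's size factors in edgeR (adjusted p = 0.0496). In edgeR it also passed without Prep-/- M0 replicate 2, Prep+/- M0 replicate 1 or Prep+/- M1 replicate 1 (adjusted p = 0.0133 to 0.0431). The fall of *Cd63* in Prep-/- M1 was -0.43 without Prep-/- M0 replicate 3 and -0.54 with the length correction, both below the fold criterion. In M2, *Cd68* rose and *Scarb2* fell in Prep-/- BMDMs (0.74 and -0.92). *Tfeb* fell in M1 (log2 fold change -0.77 ± 0.16, adjusted p = 0.00054 in Prep+/- and log2 fold change -0.90 ± 0.15, adjusted p = 0.000108 in Prep-/-) and rose in M2 (log2 fold change 1.02 ± 0.15, adjusted p = 0.000144 and log2 fold change 0.94 ± 0.15, adjusted p = 0.000111). *Tfe3* rose in M1 in Prep+/- BMDMs (log2 fold change 0.65 ± 0.10, adjusted p = 4.59e-05) and had -0.18 in Prep-/- BMDMs. *Mitf* rose in M2 in both genotypes (0.69 in Prep+/- and 0.87 in Prep-/- BMDMs) and in M1 in Prep-/- BMDMs (0.87). Single libraries decided some of these calls. *Scarb2* in Prep-/- M1 was -0.58 without Prep-/- M0 replicate 1, *Mitf* in Prep-/- M1 was 0.57 without Prep-/- M1 replicate 1, and *Mitf* in Prep+/- M2 had an adjusted p of 0.0667 to 0.0782 without Prep+/- M0 replicate 1 or M2 replicate 3.

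Other genes of the pathway were counted from written lists. Of 18 other V-ATPase subunits and assembly factors, 13 were tested, and 4 rose and 0 fell in Prep-/- BMDMs in M0, 2 rose and 1 fell in M1, and 1 rose and 0 fell in M2 (medians 0.17, 0.23 and 0.15). *Tcirg1*, the a3 isoform of osteoclasts and macrophages, rose in M0 (372 to 569 CPM, 0.61 ± 0.14, adjusted p = 0.00175) and M2 (490 to 755 CPM, 0.63 ± 0.14, adjusted p = 0.00355), both values group means, *Rogdi* (26.8 to 53.6 CPM, group means) and *Ncoa7* (0.60) rose in M0, and in M1 *Ncoa7* and *Wdr7* rose (0.76 and 0.74) and *Ccdc115* fell (-0.67). Of 26 genes of the Ragulator, the Rag GTPases, folliculin and mTORC1, 5 rose and 3 fell in M0, 5 rose and 1 fell in M1, and 3 rose and 0 fell in M2 (medians 0.15, 0.11 and 0.14). In M0, *Sesn1* and *Flcn* rose (1.09 and 0.88) and *Rptor* fell (-0.88). *Rragd*, a Rag GTPase, rose in M1 (1.34) and M2 (1.32) and *Fnip2*, a partner of folliculin, did too (0.88 and 0.89), *Sesn2* rose in M1 (1.37) and *Flcn* in M2 (0.63).

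Of 40 other lysosomal membrane proteins, 38 were tested, and 9 rose and 1 fell in M0, 6 rose and 0 fell in M1, and 7 rose and 1 fell in M2 (medians 0.39, 0.10 and 0.29). *Slc46a3* rose in each state (1.75 and 1.41 in M0 and M1, and from 27.1 to 54.2 CPM in M2). *Sidt2* and *Slc29a3*, the latter a nucleoside transporter, rose in M0 (1.54 and 1.29) and M2 (0.94 and 1.01), and *Mfsd12* and *Abcd4* rose in M1 (1.29 and 0.96). Of 45 hydrolases and their activators, 17 rose and 2 fell in M0, 8 rose and 1 fell in M1, and 18 rose and 1 fell in M2 (medians 0.29, 0.21 and 0.38). *Psap*, the precursor of the saposins, rose in each state (1.55, 1.20 and 1.43). The cathepsin gene *Ctsf* rose and the sulfatase gene *Arsb* fell in M0 (1.55 and -1.44), *Lipa* and *Idua* rose in M1 (1.22 and 1.03), and *Ctsh* and *Ctsk* rose in M2 (1.46 and 1.08). Lists of this kind do not compare the members with the rest of the genes, for which the percentages above stand. By state (M0, M1, M2), these were 15.4%, 12.3% and 6.37% for genes that rose with genotype. For genes that fell they were 17.2%, 10.2% and 9.82%.

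Markers of macrophages and of other cells moved with genotype and state. The summed level of the 8 macrophage markers was 17940 to 21450 CPM in Prep+/- M0 and 29680 to 47300 CPM in Prep-/- M0 libraries, and 7 of the 8 were DEGs that rose there. In M1 the sums were 45140 to 46670 and 29770 to 36150 CPM (1 rose and 1 fell in Prep-/- BMDMs), and in M2 they were 8823 to 10820 and 12270 to 17940 CPM (2 rose and 0 fell). *Lyz2* was the highest of the 8 in every library (6501 to 39300 CPM), so it weighs most in these sums. Granulocyte precursor markers were 17.2 to 22.4 CPM in Prep+/- M0 and 36.0 to 84.0 CPM in Prep-/- M0 libraries, and 3 of 4 tested rose (1 fell in M1 and 0 changed in M2). Osteoclast markers were 115 to 143 and 103 to 133 CPM in M0, 226 to 242 and 167 to 187 CPM in M1, and 198 to 257 and 265 to 611 CPM in M2, in Prep+/- and Prep-/- libraries. Of the 8 osteoclast markers tested, 1 rose and 2 fell in M0, 0 rose and 2 fell in M1 and 1 rose and 0 fell in M2. *Calcr* was at 0 in every M0 and M2 library, while *Ocstamp* and *Dcstamp* reached 124 and 183 CPM in Prep-/- M2 replicate 3. *Mmp9*, *Tnfrsf11a*, *Itgb3* and *Acp5* were also highest in that library of its group. *Ctsk* was not (45.8 CPM, against 49.1 and 44.7 CPM), and *Nfatc1* was lowest (29.6 CPM, against 41.6 and 41.3 CPM). Members went both ways in that library. It held the highest *Atp6v0d2*, *Atp6v0a1*, *Atp6v1b2* and *Mitf* of its group, among others. It also held the lowest *Lamp1*, *Laptm4a*, *Laptm5*, *Npc2*, *Ctns*, *Tfeb*, *Clcn7*, *Npc1* and *Scarb2*, among others. In Prep+/- M2 replicate 3, *Ocstamp* was at 30.9 CPM, against 6.73 and 7.97 CPM in replicates 1 and 2, and *Dcstamp* was at 30.7 CPM, against 6.31 and 6.84 CPM, so replicate 3 was the highest for both genes in either genotype. Their part in the genotype and M2 differences of the members was not tested.

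The remaining marker lists were low. T cell markers were 0.256 to 1.67 CPM in the Prep+/- libraries and 1.65 to 29.7 CPM in the Prep-/- libraries, highest in M0, and of the 2 tested 1, 2 and 1 rose in the M0, M1 and M2 states. B cell markers were at most 11.5 CPM, and the 1 tested rose in M0 and M1. Stromal markers were at most 18.4 CPM, with 1 of 4 tested that rose in M0. Dendritic cell markers were at most 2.64 CPM, and the 1 tested was no DEG. Erythroid and mast cell markers were at most 0.185 and 0.200 CPM, and 0 of them passed the expression filter.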

How the data were processed

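Raw counts of 18 libraries over 16314 gene symbols were used as the authors deposited them, which, per the labels and the study's methods, they had made from stranded mRNA libraries with Trimmomatic 0.36, HISAT2 2.2.1.0 and StringTie on GRCm39; the strand setting of the counting and the annotation release are not given in the sources used here. Groups came from the sample labels. Genes were filtered with filterByExpr, scaled by TMM and fitted in edgeR 4.0.16 (R 4.3.3; quasi-likelihood test, all 18 libraries, 1 coefficient per group), with p-values adjusted by Benjamini-Hochberg over 12021 genes. For DEGs, the adjusted p had to be below 0.05 and the change more than 1.5-fold; interactions had no fold criterion. The script was tested on simulated data. Alternatives were DESeq2 1.42.0, other scaling, no filter, other sets of libraries, a replicate block and a length correction. Same-numbered libraries deviated together (r over 0.1 in all 3 pairs) for the genotypes in M2 (0.25 to 0.46) and for M1 against M0 in Prep-/- (0.17 to 0.26), and not in the other comparisons. The members, pathway lists and marker lists (macrophage, osteoclast, granulocyte precursor, erythroid, B, T, mast, stromal and dendritic cells) were chosen with earlier results of these data known. Members that were DEGs between genotypes with a mean of at least 5 CPM, the MiT/TFE factors and the paralogue pairs were given by library, and of each list the 3 DEGs with the largest change. Promoters were read from GRCm39 with the GENCODE annotation. Libraries held 19068237 to 22598279 counts, and with 3 per group the spread between libraries sets the precision.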

Additional observations from a re-analysis of the deposited data

Results flagged for a closer look

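The genotype difference changed between states for several members, by the interaction term of edgeR's quasi-likelihood test. Such changes were common over all genes. Of the 38 members, 7 were lower and 4 higher in M1 (10.9% and 13.7% of all genes), and 2 were lower and 3 higher in M2 (4.48% and 5.16%). Relative to M0, the log2 fold change of Prep-/- over Prep+/- in M1 changed by -0.90 for *Laptm4a* (adjusted p = 0.00657), -0.88 for *Laptm5* (adjusted p = 0.00529), -0.84 for *Tfe3* (adjusted p = 0.000741), -0.78 for *Npc2* (adjusted p = 0.0339), -0.75 for *Scarb2* (adjusted p = 0.00392), -0.68 for *Tpcn1* (adjusted p = 0.0111) and -0.41 for *Atp6v0c* (adjusted p = 0.0256). It changed by 0.57 for *Cd68* (adjusted p = 0.0249), 0.49 for *Atp6v1a* (adjusted p = 0.0163), 0.48 for *Atp6v1c1* (adjusted p = 0.0215) and 0.48 for *Clcn7* (adjusted p = 0.0365). None of these 4 passed with the replicate block and only the libraries compared (adjusted p = 0.0532 to 0.0758).

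In M2, the difference relative to M0 changed by 0.76 for *Atp6v1c1* (adjusted p = 0.00428), 0.65 for *Atp6v1h* (adjusted p = 0.0379) and 0.60 for *Tpcn2* (adjusted p = 0.0343), and by -0.77 for *Scarb2* (adjusted p = 0.00877) and -0.79 for *Tpcn1* (adjusted p = 0.0115). *Scarb2* and *Tpcn1* were thus lower relative to M0 in both tests, which share the M0 libraries.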

How the results depend on the processing

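Of 92 calls of members, 62 held under every alternative run, and none of 1292 alternative values reversed its direction. The calls lost numbered 1 with DESeq2, 1 with DESeq2's size factors in edgeR, 4 without the filter, 7 with the length correction, 8 when only the libraries compared were fitted, and 89 of 648 values when a single library was left out. With adjusted p alone, the genotype comparison gave 3 lower members in M0, 10 higher members in M1 with 3 lower, and 17 higher members in M2, and the stimulations gave 15 higher and 8 lower (Prep+/-) and 11 higher (Prep-/-) for M1 against M0, and 16 higher (Prep+/-) and 5 lower (Prep-/-) for M2 against M0. Fitting only the libraries compared gave 2 higher interactions in M1 and 1 in M2, DESeq2 gave 11 lower in M1 and 8 higher in M2, and the length correction, chosen after seeing the data, gave 5 higher in M2. Leaving out a single library gave 0 to 1 lower members in M0 and in M1 between genotypes (*Atp6v1h* and *Atp6v1e1*), 3 to 6 higher for M1 against M0 in Prep-/-, 0 to 5 higher and 5 to 11 lower interactions in M1 and 1 to 5 higher in M2. Dropping the fold criterion or libraries alters the counts by construction, and for the other alternatives the cause was not tested.

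With the replicate number as a block over all 18 libraries, 9 members were higher between genotypes in M0 and 8 in M2, and 3 of the 92 calls were lost (*Tfeb* and *Tfe3* in M0 and *Atp6v0a1* in M2). With the block and only the libraries compared, 15 calls were lost, 6 members were higher in M0 (*Atp6v0d2* had an adjusted p of 0.0692), and the higher interactions called were 0 in M1 and 1 in M2.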
